A study of Arabidopsis thaliana with 5 samples.

Results

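The genes described here are 3 chitinase genes, CHI (AT2G43570), AT2G43590 and AT2G43620, and AT4G33720, a gene of the PR-1-like family, in whole Arabidopsis thaliana plants. They were taken by name, as all probe sets that name 1 of these 4 genes, and this gave 6 probe sets of 8247, or 4 genes of the 3592 that a probe set named alone. CHI and AT2G43620 had 1 probe set each, and AT2G43590 and AT4G33720 had 2 each. The genes were chosen by their log2 differences between these same arrays, in the lines against their accessions and in WS against Col-0, so every difference below describes those arrays and none was tested.

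RNA was measured on 5 one-colour Affymetrix arrays in a study of CAMTA proteins, the calmodulin-binding transcription activators of plants. There were 5 groups with a single array each, so values have no replicates and precision is limited by this number. The groups were the line CAMTA.1 in the accession WS, plants of WS without a line name, CAMTA.1.2 and CAMTA.6.2 as lines of the accession Col-0, and plants of Col-0 without a line name. CAMTA.1.2 and CAMTA.6.2 were labelled as T3 T-DNA insertion lines made in Columbia with the vector pROK2, and CAMTA.6.2 as a segregating one, so its plants may differ in genotype. The labels give no modification for CAMTA.1 beyond the name of the line. All plants were grown on Gamborg's B-5 medium at 18 °C and 65% humidity with 16 h light and 8 h dark and were labelled with growth stage 1.04.

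The source names of the samples did not follow these labels. The CAMTA.6.2 sample carries WSC in its source name and the Col-0 sample with no line carries KO1. Groups here follow the accession and line labels. ECS1, a gene whose transcript is known to differ between accessions, was at scaled intensities of 39.1 (CAMTA.1) and 97.3 (WS) on the arrays labelled WS, against 4865 (CAMTA.1.2), 3545 (CAMTA.6.2) and 6832 (Col-0) on those labelled Col-0. This follows the accession labels and not the source name WSC, and it does not check the line labels. Whether the WS and Col-0 arrays without a line name hold unmodified plants was therefore not checked either. Both leaf and root genes were detected, as the whole-plant label implies: 4 of 7 leaf genes and 4 of 6 root genes had a probe set of their own, and all were above the floor described below except 1 root gene on each of the CAMTA.1.2 and Col-0 arrays. The 4 root genes, all peroxidases, summed to 539.5 on the CAMTA.1 and 458.4 on the WS array, against 183.5 on the CAMTA.1.2, 391.5 on the CAMTA.6.2 and 206.4 on the Col-0 array. The 4 leaf genes summed to 10834 on the CAMTA.1, 7176 on the WS, 10570 on the CAMTA.1.2, 12882 on the CAMTA.6.2 and 9232 on the Col-0 array. The ubiquitin control, whose signal at the 3' over the 5' end tracks RNA and labelling quality, gave a ratio of 3.32 on the CAMTA.1, 2.28 on the WS, 2.68 on the CAMTA.1.2, 3.57 on the CAMTA.6.2 and 2.64 on the Col-0 array. The same ratio of the GAPDH control ordered the arrays differently, at 1.29 (CAMTA.1), 1.38 (WS), 1.94 (CAMTA.1.2), 1.78 (CAMTA.6.2) and 1.64 (Col-0).

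Chitinases cut chitin, the polymer of fungal cell walls that plants themselves do not make. Many are pathogenesis-related proteins, secreted or kept in the vacuole, and the chitin fragments they release are sensed by plant receptors as a sign of a fungus. PR-1 proteins belong to a separate family of small secreted proteins, the CAP family, and PR-1 itself is the classical marker gene of salicylic acid-dependent defence in leaves. CAMTA proteins, CAMTA3 above all, are known to hold salicylic acid-dependent defence genes down in Arabidopsis leaves. In RNA from whole plants, fewer cells of a type and less RNA per cell cannot be told apart.

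Values are scaled intensities, the linear brightness of a probe set after each array was brought to a common median. Intensities under 18.1, the lower 40% of all values, were set to this floor before differences were taken, since they carry no order. A difference is called 2-fold apart where the scaled and floored values differ by a log2 of 1 or more, and a fold against a value at the floor is a lower bound. Levels of different probe sets are not compared with each other.

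CHI, annotated as a putative chitinase, was highest in Col-0 and under the floor in 2 of the 3 lines. Its scaled intensity was 14.2 on the CAMTA.1 array, 51.8 on the WS array, 58.8 on the CAMTA.1.2 array, 13.5 on the CAMTA.6.2 array and 119.6 on the Col-0 array. The CAMTA.1 and CAMTA.6.2 arrays were therefore under the floor and have no order between them. Next came WS and CAMTA.1.2, 1.13-fold apart and so not separable without replicates, and then Col-0, 2.03-fold above CAMTA.1.2.

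In each of the 3 lines CHI was lower than on the array of its own accession. The bound was at least 2.86-fold lower in CAMTA.1 than in WS, which fell short of 2-fold with the floor at the 50th percentile (log2 difference of -0.83), and at least 6.61-fold lower in CAMTA.6.2 than in Col-0. CAMTA.1.2 was 2.03-fold lower than Col-0 (log2 difference of -1.02), just past the threshold, and fell short of it with quantile normalization at -0.98 and with log2(value + 16) at -0.86. Both Col-0 lines have this 1 Col-0 array as their control, and WS was 2.31-fold lower than the same array (log2 difference of -1.21). The CAMTA.1 and CAMTA.6.2 arrays, with CHI under the floor, had the highest ubiquitin 3'/5' ratios, 3.32 and 3.57, but the GAPDH ratio was lowest on the CAMTA.1 array, at 1.29, and highest on the CAMTA.1.2 array, at 1.94, where CHI was above the floor. They also had the highest summed leaf genes, 10834 and 12882, but the leaf genes did not move together. LHB1B2 and PSAE-1 were highest on the CAMTA.1 and CAMTA.6.2 arrays, while PRK was lowest there, at 869.4 and 784.1. RCA was lower there, at 4167 and 4546, than on the CAMTA.1.2 and Col-0 arrays, at 5254 and 5017. It was lowest, at 3631, on the WS array, where CHI was above the floor. The part of the control ratios or of the leaf genes in the CHI values was not tested.

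AT2G43590, a chitinase family gene, was lowest in WS and differed less among the other arrays. On the probe set used, the one with the higher signal, it was at 345.6 on the CAMTA.1 array, 118.5 on the WS array, 315.6 on the CAMTA.1.2 array, 305.5 on the CAMTA.6.2 array and 540.3 on the Col-0 array. WS stood 2.58-fold below the next lowest array. CAMTA.6.2, CAMTA.1.2, CAMTA.1 and Col-0 followed in steps of 1.03-fold, 1.1-fold and 1.56-fold, none of which reached 2-fold. The other probe set was dimmer, at 66.7 (CAMTA.1), 28.8 (WS), 60.2 (CAMTA.1.2), 59.1 (CAMTA.6.2) and 85.0 (Col-0). It ranked the 5 arrays in the same order and put WS 2.05-fold below the next array. Both probe sets thus put WS lowest, but both were read on the same single WS array. The probe set used ends in _s_at, the suffix of probe sets able to read more than 1 transcript, and the other in _r_at. Whether they are independent readings of the gene was not tested.

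For AT2G43590 the lines went opposite ways relative to their accession. The line arrays themselves lay close together, at 345.6 (CAMTA.1), 315.6 (CAMTA.1.2) and 305.5 (CAMTA.6.2). The opposite signs therefore turn on the single WS array, at 118.5, and the single Col-0 array, at 540.3. CAMTA.1 was 2.92-fold higher than WS on the probe set used and 2.32-fold higher on the other. CAMTA.1.2 was 1.71-fold lower than Col-0 and CAMTA.6.2 1.77-fold lower, both under the threshold and both against 1 Col-0 array. WS was 4.56-fold lower than Col-0, or 2.95-fold on the other probe set. The single WS array is used here and against CAMTA.1, so its low value enters both with opposite sign. The CAMTA.1 array, which shares the WS accession label, did not share the low value, since it lay 1.56-fold below Col-0 and 1.1-fold above CAMTA.1.2.

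AT2G43620, a chitinase family gene from the same stretch of genes, was high in CAMTA.1 and differed by less than 2-fold among the other 4 arrays. It was at 313.1 on the CAMTA.1 array, 55.1 on the WS array, 46.1 on the CAMTA.1.2 array, 74.1 on the CAMTA.6.2 array and 64.1 on the Col-0 array. CAMTA.1 stood 4.22-fold above the next array, CAMTA.6.2, and the steps below that were 1.16-fold, 1.16-fold and 1.2-fold. Against WS the CAMTA.1 value was 5.68-fold higher (log2 difference of 2.51). CAMTA.1.2 and CAMTA.6.2 had log2 differences of -0.48 and 0.21 from Col-0, and WS one of -0.22. The gene has a single probe set, so no second reading of the CAMTA.1 value was at hand.

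AT4G33720, the PR-1-like gene, was highest in WS and low or at the floor in all arrays labelled Col-0. On the probe set used it was at 48.0 on the CAMTA.1 array, 400 on the WS array, 0.403 on the CAMTA.1.2 array, 13.2 on the CAMTA.6.2 array and 27.1 on the Col-0 array. WS stood 8.34-fold above CAMTA.1, which was 1.77-fold above Col-0, and both lines of Col-0 were under the floor with no order between them. The other probe set read 42.0 (CAMTA.1), 192.2 (WS), 3.93 (CAMTA.1.2), 6.82 (CAMTA.6.2) and 21.3 (Col-0), with the same array on top and the same 2 under the floor.

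CAMTA.1 was 8.34-fold lower than WS for AT4G33720, or 4.58-fold on the other probe set. WS was 14.8-fold higher than Col-0, or 9.01-fold on the other. Both comparisons use the single WS array, so its high value enters both with opposite sign. CAMTA.1.2 and CAMTA.6.2 were each at least 1.5-fold lower than Col-0, where the gene was itself close to the floor, and at least 1.18-fold on the other probe set. These bounds follow the floor: the log2 differences were -1.36 and -1.06 with it at the 30th percentile, and with it at the 50th all 3 arrays were under it and gave 0.00.

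**Figure D1:**
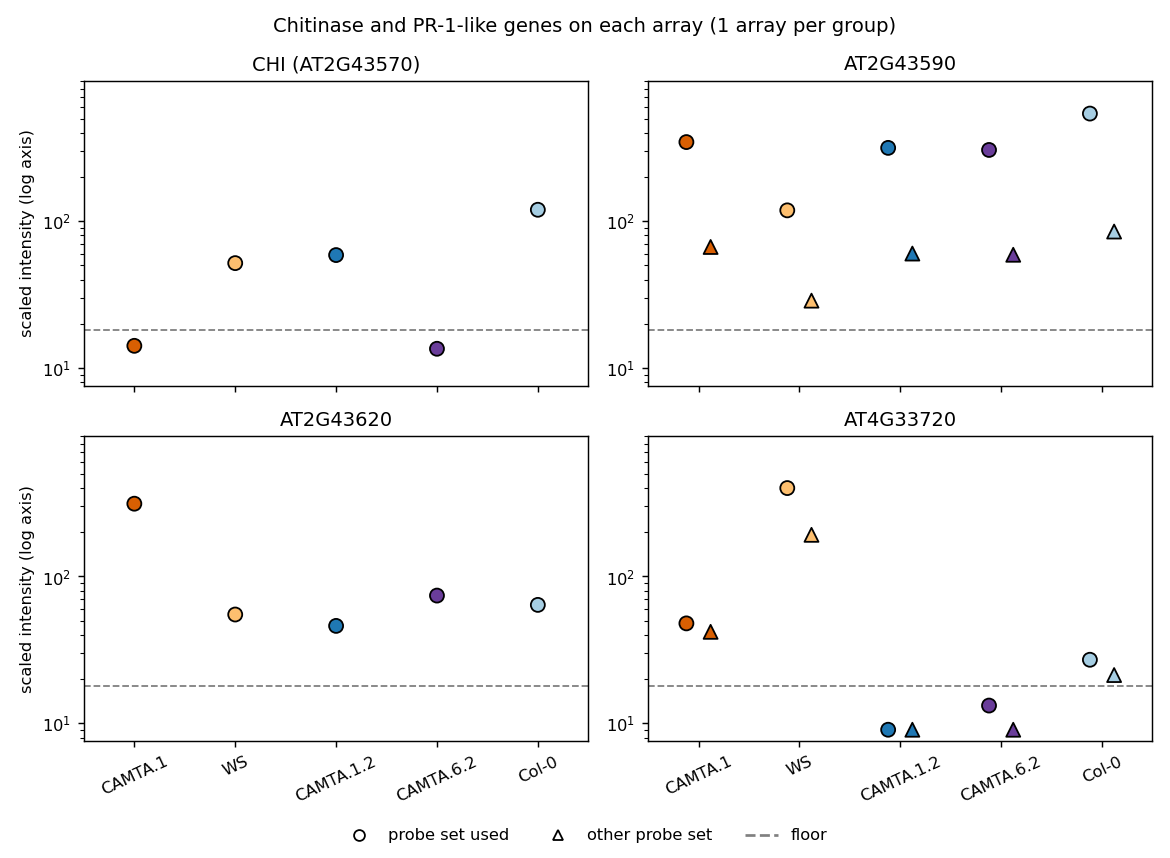
Scaled intensity (log axis) of each probe set of the 4 genes on the 5 arrays, 1 point per array and probe set; circles are the probe sets used, triangles the other probe set of the same gene, the dashed line is the floor of 18.1, and values under 9.05 are drawn at 9.05. CHI peaks at 119.6 in Col-0, AT2G43590 is lowest at 118.5 in WS, AT2G43620 peaks at 313.1 in CAMTA.1 and AT4G33720 peaks at 400 in WS.

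The 4 genes did not share a pattern. Each had 1 array that lay 2-fold or more from all the others: Col-0 above for CHI, WS below for AT2G43590, CAMTA.1 above for AT2G43620 and WS above for AT4G33720. Over all probe sets, 2.5% had such an array. Since the genes were chosen for values of this kind, nothing is read from the 4 of 4. Patterns of pairs of these genes, centred on their own means over the 5 arrays, differed by a root mean square of 1.08 (AT2G43590 and AT2G43620) to 2.3 (AT2G43590 and AT4G33720) in log2.

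By comparison, all 4 genes were 2-fold apart in CAMTA.1 against WS, with AT2G43590 and AT2G43620 higher and CHI and AT4G33720 lower, where 6.12% of all probe sets were 2-fold apart. In CAMTA.1.2 against Col-0 only CHI was 2-fold apart among the 4, with 1.93% of all probe sets. CHI was also the only one of the 4 in CAMTA.6.2 against Col-0, with 7.64% of all probe sets. In WS against Col-0 there were 3, CHI and AT2G43590 lower and AT4G33720 higher, with 4.15% of all probe sets. The choice of the genes used these same comparisons, and the counts describe that choice. For CAMTA.1 against WS, the 4245 probe sets used for scaling had a median log2 difference of 0.13 after scaling and of 0.00 as deposited.

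**Figure D2:**
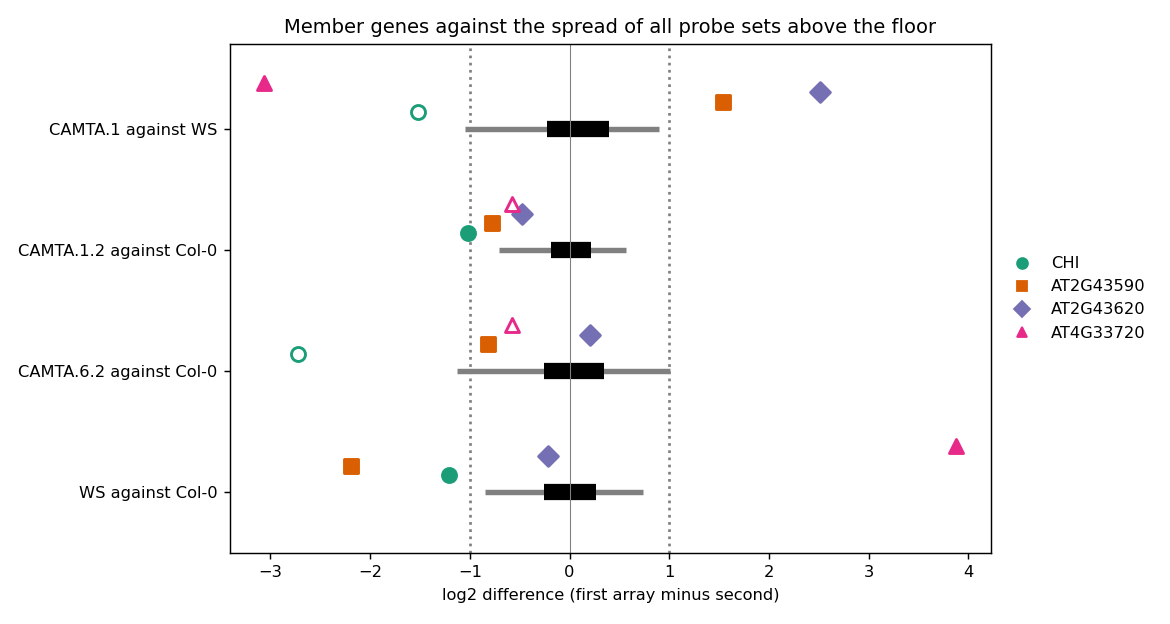
Log2 difference (horizontal axis, first array minus second) of the 4 genes in each of the 4 comparisons; open symbols are bounds set by the floor, dotted lines mark 2-fold, and bars show the 25th to 75th (black) and 5th to 95th (grey) percentiles of the 5635 probe sets above the floor on 1 array or more. AT4G33720 lies at -3.06 in CAMTA.1 against WS and at 3.88 in WS against Col-0, and AT2G43620 at 2.51 in CAMTA.1 against WS and between -0.48 and 0.21 elsewhere.

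The accession labels were set against each gene over all 5 arrays. AT4G33720 was higher on both arrays labelled WS, at 48.0 (CAMTA.1) and 400 (WS), than on the 3 labelled Col-0, where it reached at most 27.1, and the other probe set gave 42.0 and 192.2 against at most 21.3. The other 3 genes overlapped between the accession labels. CHI ran from 14.2 to 51.8 on the arrays labelled WS and from 13.5 to 119.6 on those labelled Col-0, AT2G43590 from 118.5 to 345.6 against 305.5 to 540.3, and AT2G43620 from 55.1 to 313.1 against 46.1 to 74.1. Over all probe sets 14% did not overlap, 8.03% with both WS-labelled arrays above and 5.94% with both below. The root marker genes were also at their highest summed level on the 2 arrays labelled WS. Of these genes, AT3G01190 and AT4G11290 were higher on both than on every array labelled Col-0. AT5G17820 was highest in CAMTA.6.2, at 261.3, and AT4G26010 was higher in CAMTA.6.2, at 37.1, than in CAMTA.1, at 30.7. The part of the root genes in the AT4G33720 values was not tested. Without the CAMTA.6.2 array, whose source name reads WSC, CHI no longer overlapped either and was lower on the WS-labelled arrays, but 26.7% of all probe sets then did not overlap.

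The chitinase genes lie in a run of 6 neighbouring genes, AT2G43570 to AT2G43620, and all 6 had a probe set. AT2G43580 and AT2G43600, both listed here among the family 19 chitinases, were under the floor on all 5 arrays. AT2G43610, which sits directly before AT2G43620 in the gene order, was measured on every array. It was at 498.5 (CAMTA.1), 496.9 (WS), 496.6 (CAMTA.1.2), 845.4 (CAMTA.6.2) and 394.6 (Col-0). It was 2-fold apart in CAMTA.6.2 against Col-0 alone among the 4 comparisons, higher by a log2 difference of 1.10, and was level in CAMTA.1 against WS, where AT2G43620 was 5.68-fold apart. Of the 4 genes of this run above the floor, CHI and AT2G43590 were highest in Col-0, AT2G43610 in CAMTA.6.2 and AT2G43620 in CAMTA.1.

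AT4G33720 has PR-1-like neighbours on both sides. AT4G33710 was at 34.3 (CAMTA.1), 53.8 (WS), 45.6 (CAMTA.1.2), 42.0 (CAMTA.6.2) and 30.0 (Col-0), highest in WS like AT4G33720 but within 1.79-fold over all arrays. AT4G33730 was under the floor throughout, so its readings have no order. Of the probe sets in both runs of genes, those of AT2G43600 and AT4G33710 and 1 each of AT2G43590 and AT4G33720 carry the suffix that Affymetrix gives to probe sets able to read more than 1 transcript, so signal shared between related genes cannot be told apart there. The other probe sets of AT2G43590 and AT4G33720 carry a different suffix, _r_at, and neither gene had a probe set with the plain suffix _at.

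**Figure D3:**
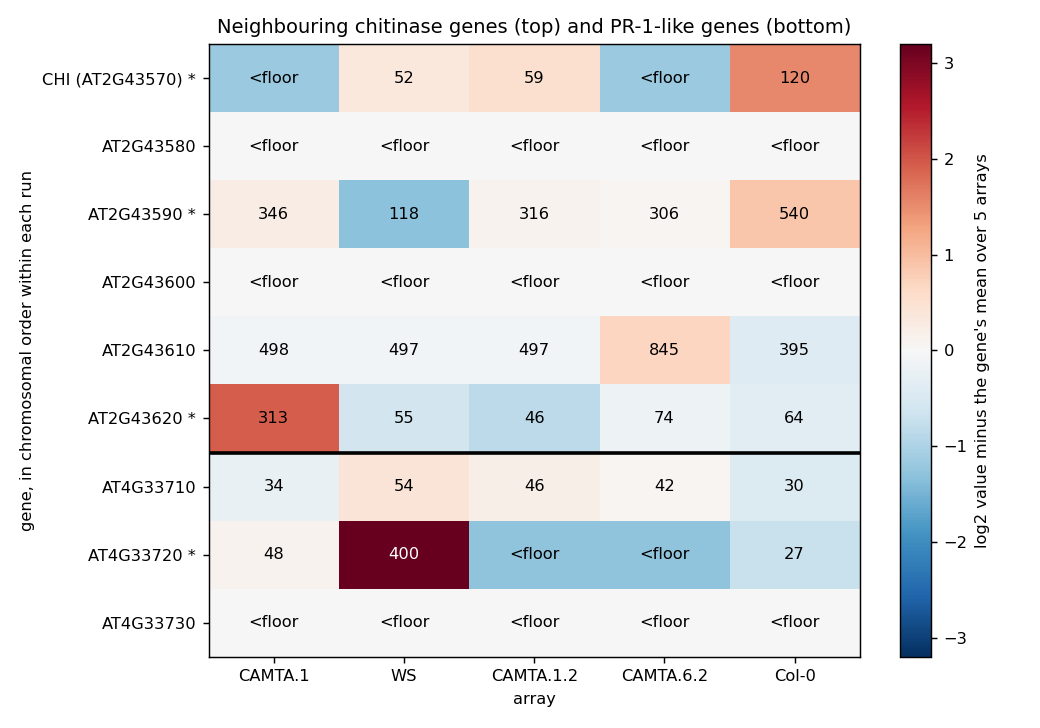
Scaled intensity (numbers) of the 6 neighbouring chitinase genes and 3 neighbouring PR-1-like genes on each array, with colour showing the log2 value minus the gene's own mean over the 5 arrays after the floor was set; asterisks mark CHI, AT2G43590, AT2G43620 and AT4G33720. The departures fall on different arrays from gene to gene, and AT2G43580, AT2G43600 and AT4G33730 are under the floor on all 5.

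The wider families were counted from lists of their genes. Of 14 family 19 chitinase genes 7 had a probe set and 5 were above the floor on an array, the 3 chitinase genes above among them. The remaining 2 were AT2G43610 and AT4G01700, and AT4G01700 stayed between 44.5 and 80.0 with no comparison at 2-fold. The 5 had a median log2 difference of 0.00 in CAMTA.1 against WS, -0.48 in CAMTA.1.2 and 0.21 in CAMTA.6.2 against Col-0, and -0.22 in WS against Col-0. These medians are not a reading of the family apart from the choice, since 3 of the 5 genes were chosen on these same comparisons. The last 3 medians are the values of AT2G43620 itself. In the same order of comparisons AT2G43610 had 0.00, 0.33, 1.10 and 0.33, and AT4G01700 -0.18, -0.45, 0.40 and 0.02. The 5635 probe sets measured above the floor at least once had medians of 0.05 in CAMTA.1 against WS, 0.00 in CAMTA.1.2 and 0.02 in CAMTA.6.2 against Col-0, and 0.00 in WS against Col-0.

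Of the 10 family 18 chitinase genes, an unrelated enzyme fold with the same substrate, 9 had a probe set. Only ChiC (AT4G19810) was above the floor on an array. It was at 18.1 (CAMTA.1) and 16.0 (WS), both under the floor, against 44.6 (CAMTA.1.2), 45.6 (CAMTA.6.2) and 50.7 (Col-0). WS was at least 2.8-fold lower than Col-0. Both WS-labelled arrays lay below all 3 Col-0-labelled ones, as for 5.94% of all probe sets. For AT4G33720 both lay above, as for 8.03% of all probe sets. CAMTA.1.2 and CAMTA.6.2 differed from Col-0 by log2 differences of -0.19 and -0.15.

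Of the 22 PR-1-like genes 10 had a probe set and 7 were above the floor on an array, AT4G33720 included. PR-1 itself (AT2G14610) was not among the named probe sets and was not analysed here. AT4G07820 was at 38.0 (CAMTA.1), 41.8 (WS), 187.4 (CAMTA.1.2), 114 (CAMTA.6.2) and 75.0 (Col-0) on the probe set used, 2.5-fold higher in CAMTA.1.2 than in Col-0, while its 3 other probe sets were under the floor on all arrays. AT2G19970 was at 55.1 in CAMTA.6.2, against 19.6 in Col-0, a log2 difference of 1.49, and at no more than 20.3 on any array but CAMTA.6.2. The median of the 7 was -0.14 in CAMTA.1 against WS, 0.00 in CAMTA.1.2 and 0.49 in CAMTA.6.2 against Col-0, and 0.00 in WS against Col-0.

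Few other defence genes had a probe set of their own. Among 14 genes of other pathogenesis-related and antimicrobial proteins there were 4. The thionin gene THI2.1 was at 15.0 (CAMTA.1), 83.4 (WS), 2.11 (CAMTA.1.2), 12.7 (CAMTA.6.2) and 208.6 (Col-0), under the floor on all 3 line arrays. Like CHI, it was highest in Col-0. One of its 3 probe sets did not show this, with 24.4 in Col-0 and 44.1 in CAMTA.6.2. OSM34, an osmotin-like gene, was at 376.4 in CAMTA.6.2, against 826.1 in Col-0, a log2 difference of -1.13, and was within 2-fold in the other comparisons. THI2.2, a second thionin gene, was at 74.9 in CAMTA.6.2 and under the floor elsewhere. The defensin gene LCR67 reached 33.7 in CAMTA.6.2 and was under the floor on the other 4 arrays.

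Of 13 salicylic acid defence genes only WRKY53, a transcription factor gene of defence and senescence, was named. It was above the floor in WS and Col-0 alone, at 43.2 and 64.0, and under it at 9.14 (CAMTA.1), 14.2 (CAMTA.1.2) and 13.1 (CAMTA.6.2). None of 9 jasmonate and ethylene genes and none of 6 chitin perception genes had a probe set naming it alone, so neither pathway was described.

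Genes with the most similar pattern were sought over the 5 arrays among 609 other named genes that spanned 2-fold or more. The measure was the root mean square difference of log2 values centred on their own mean, and a small value over 5 arrays says only that the profiles run close together. Nearest to CHI were ATA20 at 0.16, LHCB4.3 at 0.21 and SRC2 at 0.4. ATA20 was at 22.3 (CAMTA.1), 50.9 (WS), 67.7 (CAMTA.1.2), 20.2 (CAMTA.6.2) and 162.8 (Col-0). LHCB4.3, a light-harvesting protein gene, was at 48.4 (CAMTA.1), 199.3 (WS), 217.6 (CAMTA.1.2), 51.1 (CAMTA.6.2) and 356.1 (Col-0). Both were measured above the floor on all 5 arrays and were lowest on the 2 arrays where CHI was under it.

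Nearest to AT2G43590 were AT1G11850 at 0.29, AT2G45250 at 0.3 and the ATP sulfurylase gene APS3 at 0.31, each lowest in WS and highest in Col-0. AT2G45250 was at 20.5 in WS and between 44.9 and 51.5 on the other arrays. Nearest to AT2G43620 were AT4G33560 at 0.24, AT2G40960 at 0.34 and AT1G04040 at 0.39, each highest in CAMTA.1. AT2G40960 was above the floor in CAMTA.1 alone, at 61.6, so the flat part of its profile is the floor itself. AT1G04040 was at 336.5 (CAMTA.1), 85.4 (WS), 79.3 (CAMTA.1.2), 180.6 (CAMTA.6.2) and 88.6 (Col-0).

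AT4G33720 had no close match, and its nearest genes were AT5G55070 at 0.95, AT5G19890 at 0.96 and AT2G35820 at 0.97. All 3 were highest in WS, but AT5G55070, at 219.5 in CAMTA.1 and 239.6 in WS, was level between the WS-labelled arrays where AT4G33720 was 8.34-fold apart.

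**Figure D4:**
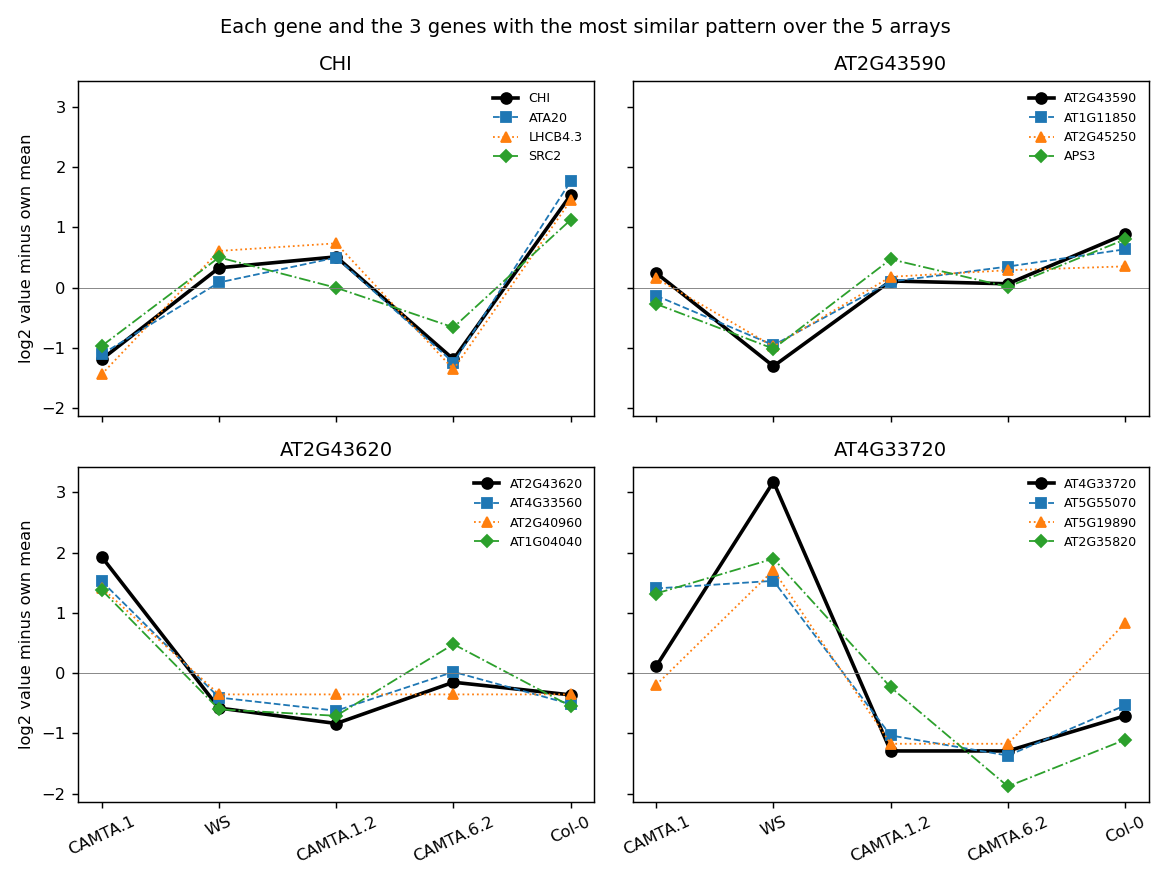
Log2 value minus own mean over the 5 arrays (vertical axis) for each of the 4 genes (black) and the 3 named genes with the most similar pattern (dashed and dotted), with values under the floor set to it. The CHI panel runs within a root mean square of 0.16 to 0.4 of its 3 nearest genes, while the nearest genes of AT4G33720 differ from it by 0.95 to 0.97.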

How the data were processed

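RNA from whole plants was extracted with TRIzol and hybridised as biotin-labelled cRNA, per the labels' protocols. What was deposited is a table of linear intensity values, 1 per probe set and array, whose 2% trimmed means of 100 on every array show that the authors had levelled the arrays. How probes were summarised is not stated in the labels or files used here. The 50 control probe sets were left out. A floor was placed at the 40th percentile of all values, 18.1. Arrays were aligned on their median log2 values over 4245 probe sets that exceeded it on every array, and lower values were then raised to the floor. With 1 array per group no difference was tested and no p-value is given. Probe sets were named by the platform annotation and the TAIR10.1 gene table, which also gave the order of genes. The brightest probe set on average stood for a gene that had several. The named genes were the 4 chosen genes, list members 2-fold apart in 1 of the 4 comparisons and the 3 nearest patterns of each. Their neighbours and AT4G01700, AT4G33710, AT4G33730 and LCR67 were named after their values were seen. The genes and lists were chosen with earlier results of these data known. Other scalings, floors, thresholds and probe set rules were tried as alternatives. Steps were tested on simulated data with 200 changed probe sets. Python 3.11.15, numpy 2.4.6, pandas 2.3.3, scipy 1.17.1 and matplotlib 3.10.9 were used.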

Additional observations from a re-analysis of the deposited data

Results flagged for a closer look

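CAMTA.1 and CAMTA.1.2, lines with similar names, were set against their own accessions, WS and Col-0. Of the 12 listed defence genes whose rounded log2 difference was not 0 in both, 5 went opposite ways. AT2G43610, at 0.00 and 0.33, is not among the 12 because of the rounding. The 5 of 12 are 41.7%, near the 49.1% of all 4844 probe sets with a difference in both, so the count says nothing particular about these genes. The labels do not state that both lines carry a change in the same gene, each difference rests on 2 arrays, and the difference between them was not tested. For AT2G43620 the log2 difference was 2.51 in CAMTA.1 against WS and -0.48 in CAMTA.1.2 against Col-0, which are 2.98 apart. For AT2G43590 it was 1.54 and -0.78, which are 2.32 apart. AT4G07820 had -0.14 and 1.32, a difference of -1.46 between them, and AT4G33710 had -0.65 and 0.60, a difference of -1.25. AT2G19970, close to the floor in all 4 arrays, had 0.17 and -0.10, or 0.27 apart, and both are small.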

How the results depend on the processing

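No log2 difference of the 4 genes changed sign under the alternatives tried. CHI in CAMTA.1 against WS fell under 2-fold with the floor at the 50th percentile, at -0.83, and in WS against Col-0 with log2(value + 16), at -1.0 after rounding. Of the 4 genes, 2 were past a 3-fold threshold in CAMTA.1 against WS, with 1.88% of all probe sets. In CAMTA.1.2 against Col-0 there were 0 with quantile normalization (1.82% of all probe sets) and 0 at 3-fold (0.388%), but 2 with the floor at the 30th percentile (3.12%) and 2 at 1.5-fold (8.09%). With log2(value + 16) the count stayed at 1, with AT4G33720 at -1.39 in place of CHI. In CAMTA.6.2 against Col-0 there were 2 with the floor at the 30th percentile (9.51%) and 2 at 1.5-fold (18.4%). In CAMTA.1.2 against Col-0 all probe sets 2-fold apart numbered 159, with 257 at the 30th percentile floor and 103 with log2(value + 16). Probe sets that did not overlap between the accession labels numbered 1152, with 1776 by log2(value + 16) and 2202 without the CAMTA.6.2 array, which left 2 of the 4 genes, CHI and AT4G33720. That last alternative was added after seeing the data. Of probe sets 2-fold apart, 39.4% were higher in CAMTA.1 than in WS and 38.3% in WS than in Col-0, against 25.8% and 48.7% in the deposited values. No paired analysis was possible because each group has 1 array. No probe set named 1 of the 4 genes together with another gene, so counting such probe sets changed nothing. Low signal limits CHI and AT4G33720, each under the floor on 2 of 5 arrays.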
